A study of Mus musculus with 18 samples.

Results

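The circadian clock genes were followed as 10 transcripts in bone marrow-derived macrophages (BMDMs), namely Arntl, Clock, Per1, Per2, Cry1, Nr1d1, Nr1d2, Dbp, Bhlhe40 and Bhlhe41. They were chosen by symbol, with earlier results of these data known. All 10 were found among the 24485 genes listed in each of the 18 libraries. The cells came from 12-week-old male Il10-/- mice on the C57BL/6J background, which lack the anti-inflammatory cytokine IL-10 in every cell. All 6 groups therefore carried the deletion, and wild-type cells were not analysed here. Each group held 3 libraries, 1 from each of 3 mice. Marrow was grown in medium conditioned by L929 cells, which supplies macrophage growth factor. Mature BMDMs were left untreated or received 500 nM (+)-JQ1, a small molecule that displaces BET proteins from acetylated histones, or 10 ng/mL IL-10. After 12 hours, 50 ng/mL lipopolysaccharide (LPS), the bacterial ligand of Toll-like receptor 4, or PBS was added, and RNA was taken 4 hours later. The groups are called Unstimulated, (+)-JQ1, IL-10, LPS, LPS + (+)-JQ1 and LPS + IL-10. By their labels, cells given neither agent were untreated, but the study's methods describe a vehicle ahead of LPS, so LPS and a vehicle cannot be told apart in the comparison with Unstimulated cells. The methods call the unstimulated controls untreated. A pretreatment and its vehicle therefore cannot be told apart in comparisons with Unstimulated cells, or in the interactions that use them. All RNA was taken at 16 hours, and no step that sets the cells to a common circadian phase is named in the sources used here. A change of phase and a change of mean level cannot be told apart at 1 time of harvest.

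The mammalian clock is a loop of transcription and repression. CLOCK and BMAL1, the product of Arntl, bind E-box elements as a pair and drive the Per, Cry, Nr1d and Dbp genes, and PER and CRY proteins then repress that pair. REV-ERB proteins, made from Nr1d1 and Nr1d2, repress Arntl and Clock through elements shared with the ROR activators, DBP acts through D-box elements, and BHLHE40 and BHLHE41 compete for E-boxes. In macrophages this loop is known for timing the strength of the response to bacterial products, and REV-ERB proteins also repress inflammatory genes there.

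Promoter sequences are shown for the members in which a searched clock element was found, since these are the stretches on which the loop is described to act. Of the members, 8 were matched by symbol to RefSeq promoter windows of 300 bases, with 12 windows among them, and Per2 and Bhlhe40 had no entry. The E-box letters CACGTG were in the windows of 3 of the 8 members, Per1, Cry1 and Bhlhe41, and in those of 8.09% of all 27025 genes, or 7.15% of all 32851 windows. The REV-ERB and ROR letters TAGGTCA or TGGGTCA, searched on both strands, were in 1 member, Arntl, and in 7.35% of all genes, or 6.45% of all windows. The D-box letters TTATGTAA, the cAMP response letters TGACGTCA and the AP-1 letters TGANTCA were in none of the 12 windows, against 0.938%, 1.79% and 7.81% of all windows. CACGTG overlaps none of the other letters in the windows shown. The sequences were read from RefSeq windows of build GRCm38.p6 and located by exact match in mm9, the build used for the deposited values, and each is written from 5′ to 3′ on the strand of its gene with the element in capitals. The runs for Cry1 and Bhlhe41 end before the annotated first exon, the run for Per1 lies in an intron of the longer gene model just before the exon at the RefSeq start, and the run for Arntl is a site of 30 bases within the first exon.
Per1 (mm9, chr11:68912201-68912449, + strand): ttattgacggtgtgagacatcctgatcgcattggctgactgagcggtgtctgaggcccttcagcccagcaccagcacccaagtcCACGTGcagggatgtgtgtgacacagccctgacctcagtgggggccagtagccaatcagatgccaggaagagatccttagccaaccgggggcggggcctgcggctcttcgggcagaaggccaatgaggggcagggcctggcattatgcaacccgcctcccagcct
Cry1 (mm9, chr10:84647800-84648049, - strand): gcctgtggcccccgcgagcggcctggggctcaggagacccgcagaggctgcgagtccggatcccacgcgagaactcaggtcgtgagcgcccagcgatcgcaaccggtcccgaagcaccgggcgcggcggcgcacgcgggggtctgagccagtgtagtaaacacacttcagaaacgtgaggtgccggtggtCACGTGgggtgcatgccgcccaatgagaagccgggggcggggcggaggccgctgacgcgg
Bhlhe41 (mm9, chr6:145814079-145814190, - strand): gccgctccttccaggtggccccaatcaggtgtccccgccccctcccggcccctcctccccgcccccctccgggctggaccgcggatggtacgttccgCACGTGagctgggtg
Arntl (mm9, chr7:120351044-120351073, + strand): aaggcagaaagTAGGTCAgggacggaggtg
A match is a run of letters and not a measured binding site.

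Libraries held 6781952 to 28289498 expected counts in all, so that 3 counts amounted to 0.106 to 0.442 CPM, a floor that covers counting error only. Levels below are normalised counts, that is, expected counts divided by each library's median-of-ratios size factor, and fold changes are log2 values from DESeq2 ± SE. A gene was called when its Benjamini-Hochberg adjusted p in the DESeq2 Wald test over all genes was under 0.05. The 8 macrophage markers examined, Csf1r, Adgre1, Itgam, Cd68, Lyz2, Mertk, Spi1 and Cd14, summed to between 15522 and 29413 TPM in every library. Lyz2 alone was at 9722 to 24853 TPM and held the larger part of each sum, and no other of the 8 exceeded 2157 TPM. The sum of the 8 was 23417 to 25271 TPM in Unstimulated, 29269 to 29413 in (+)-JQ1 and 23552 to 24973 in IL-10. With LPS it was 15522 to 16931 TPM in LPS, 20139 to 23125 in LPS + (+)-JQ1 and 16560 to 18085 in LPS + IL-10. The part of these differences in the results was not tested. The 7 neutrophil and granulocyte markers summed to 7.46 to 16.9 TPM in (+)-JQ1 and 13.0 to 29.6 TPM in LPS + (+)-JQ1 against 23.2 to 84.2 TPM in the other 4 groups, and their part in the results was not tested. Of these, S100a8, S100a9 and Ngp were above 0 in every library, and Mpo, Elane and Ly6g were at 0 in 16, 17 and 18 of the 18 libraries. The 4 T cell markers summed to at most 0.32 TPM. The 4 B cell markers summed to 2.34 to 5.13 TPM in Unstimulated, 3.29 to 3.92 in IL-10 and 0.2 to 0.5 in (+)-JQ1. With LPS they summed to 0.89 to 1.53 TPM in LPS, 1.1 to 1.65 in LPS + IL-10 and 0.1 to 0.68 in LPS + (+)-JQ1. Their part in the results was not tested. The 5 stromal markers summed to 17.4 to 19.0 TPM in LPS and 19.2 to 20.9 TPM in LPS + IL-10 against 2.23 to 10.2 TPM in the other 4 groups, with Pdgfrb reaching 14.1 TPM, and their part in the results was not tested. In bulk RNA, fewer cells expressing a gene and less RNA per cell cannot be told apart.

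**Figure D1:**
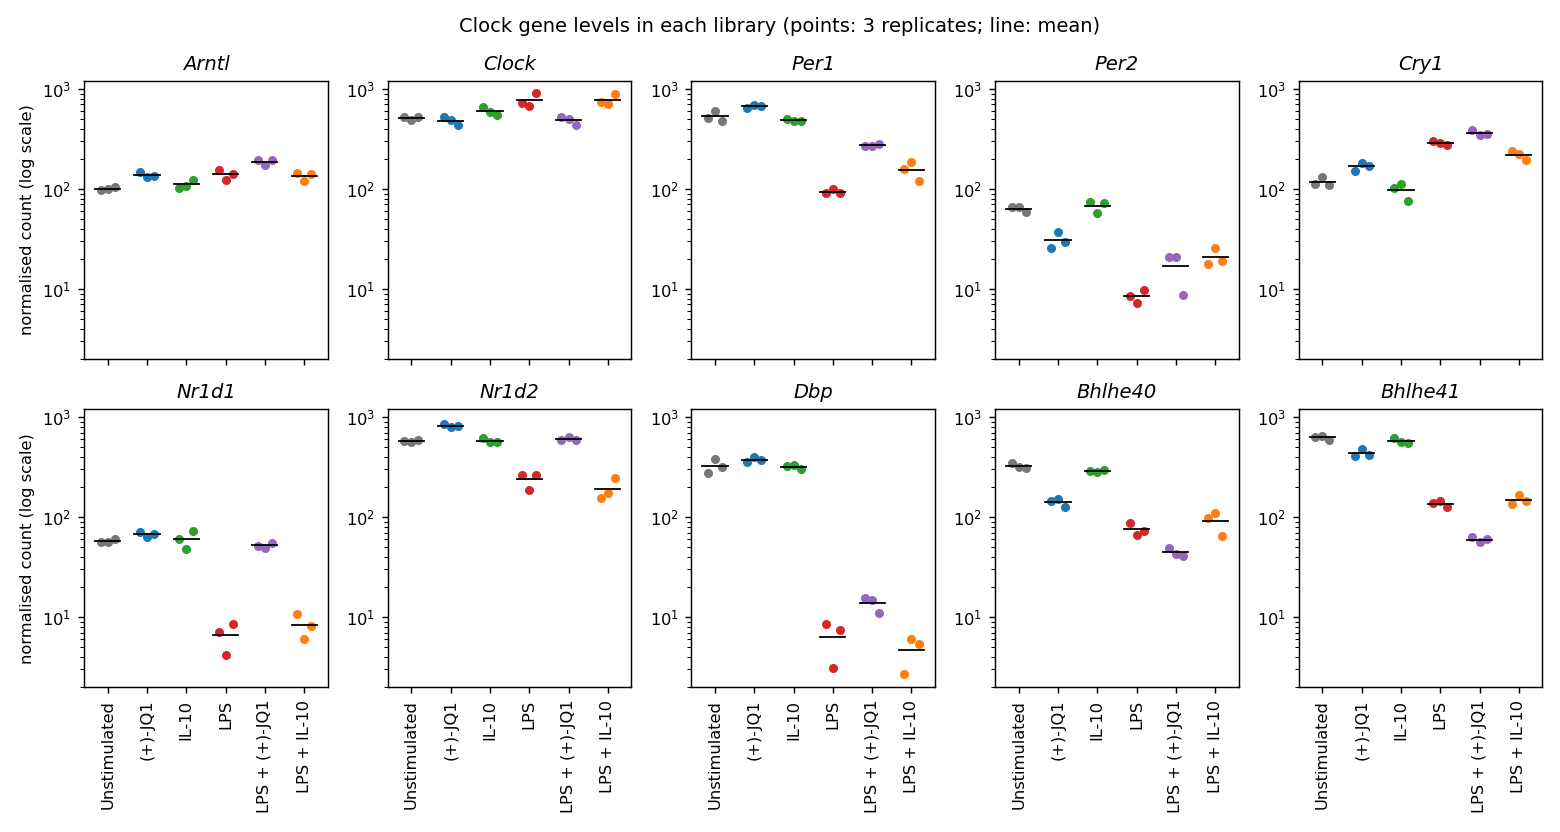
Normalised counts of the 10 clock genes (log axis) in the 6 groups, with each of the 3 libraries as a point and the mean as a line. Dbp lay between 279 and 399 in all libraries without LPS and between 2.71 and 15.5 in all libraries with LPS, whereas Nr1d1 with LPS was at 4.14 to 8.59 in LPS and at 49.5 to 55.4 in LPS + (+)-JQ1.

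LPS alone was associated with a change in every clock gene examined. The 7 that fell were repressor and output genes (Per1, Per2, Nr1d1, Nr1d2, Dbp, Bhlhe40 and Bhlhe41), and the 3 that rose were Cry1, Arntl and Clock, of which Arntl and Clock were lower when libraries were scaled to total counts. Dbp, the output transcription factor of the loop, was lowest relative to Unstimulated cells, at 1.95% of their mean, and Nr1d1 was at 11.4%. All 10 were called, against 64.5% of the 14965 genes tested, of which 31.6% rose and 32.9% fell. The median absolute log2 fold change was 2.15 over the clock genes and 0.99 over all genes tested. Since the members were chosen with earlier results of these data known, values beside all genes are a description only. The LPS and Unstimulated libraries did not overlap for any of the 10.

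With (+)-JQ1 pretreatment, 6 of the genes fell with LPS, 2 rose, and Nr1d1 and Clock were not called, against 58.6% of all genes called, 27.6% higher and 31.0% lower. The fall of Per2 (-0.84, adjusted p = 0.0156) was not called without (+)-JQ1 replicate 2 (adjusted p = 0.0892), without LPS + (+)-JQ1 replicate 3 (-0.55, adjusted p = 0.155) or with only the groups compared (adjusted p = 0.108), and the rise of Arntl (0.43) was 0.053 with total-count scaling, which gave 1 higher and 8 lower. The median absolute log2 fold change was 0.97 over the clock genes and 0.64 over all genes tested. With IL-10 pretreatment all 10 were again called, 3 higher and 7 lower, against 67.0% of all genes, 33.2% higher and 33.8% lower, although Arntl (-0.52) and Clock (-0.45) were lower with total-count scaling. The rise of Arntl there (0.31, adjusted p = 0.0397) had overlapping groups and was not called with TMM scaling (adjusted p = 0.117), with only the groups compared (adjusted p = 0.128), without any 1 replicate number, or without Unstimulated replicate 1 or 3, IL-10 replicate 1 or 2, or LPS + IL-10 replicate 1 or 3 (adjusted p = 0.0504, 0.0548, 0.177, 0.108, 0.134 and 0.145).

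In cells without LPS, (+)-JQ1 raised 4 clock genes (Per1, Cry1, Nr1d2 and Arntl) and lowered 3 (Bhlhe40, Bhlhe41 and Per2), against 45.7% of all genes called, 21.9% higher and 23.7% lower. The genes called higher numbered 2 with total-count scaling, where Per1 (0.18, adjusted p = 0.126) and Arntl (0.28, adjusted p = 0.0954) were not called, and 1 with limma on TPM. IL-10 alone changed none of the 10 in DESeq2, at an adjusted or an unadjusted p under 0.05, against 2.81% of all genes called, 1.8% higher and 1.01% lower. edgeR likewise called 0, and limma on log2(TPM + 1) called 0 with 1 gene at an unadjusted p under 0.05. Of the log2 fold changes with IL-10 alone, that of Cry1 was largest in size, at -0.24, with a 95% interval of the difference from -0.53 to 0.041. Clock was at 0.23, with an interval from -0.0067 to 0.47, and the interval of Per2 ran from -0.34 to 0.56.

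During LPS, (+)-JQ1 raised 7 clock genes (Nr1d1, Per1, Nr1d2, Dbp, Per2, Arntl and Cry1) and lowered 3 (Bhlhe41, Bhlhe40 and Clock), against 57.3% of all genes called, 24.4% higher and 32.9% lower. The called count was 6 without replicate 2 in all groups, the lowest of the fits that left out a replicate or library. IL-10 during LPS raised Per1 and Per2 and lowered Cry1, against 17.2% of all genes called, 8.38% higher and 8.81% lower, and the fit on the compared groups alone called 1 of the 3. Compared directly during LPS, (+)-JQ1 and IL-10 differed for 9 genes, with 6 higher and 3 lower in LPS + (+)-JQ1, against 55.3% of all genes, 23.8% higher and 31.6% lower. The comparisons of each pretreatment during LPS with LPS alone share the LPS libraries, and those without LPS share the Unstimulated libraries. The direct comparison uses the LPS + (+)-JQ1 and LPS + IL-10 libraries again.

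The interaction term of the fit tested whether the effect of a pretreatment differed with and without LPS. For (+)-JQ1 it was called for 6 clock genes, positive for Nr1d1, Per2, Per1 and Nr1d2 and negative for Bhlhe41 and Clock (0.16 for Bhlhe41 in limma on TPM), against 41.5% of all genes, 17.7% positive and 23.8% negative. For IL-10 it was called for Per1 alone, against 7.44% of all genes, 4.0% positive and 3.44% negative. The Per1 call was lost without replicate 1 (adjusted p = 0.0859) and without replicate 2 (adjusted p = 0.18).

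**Figure D2:**
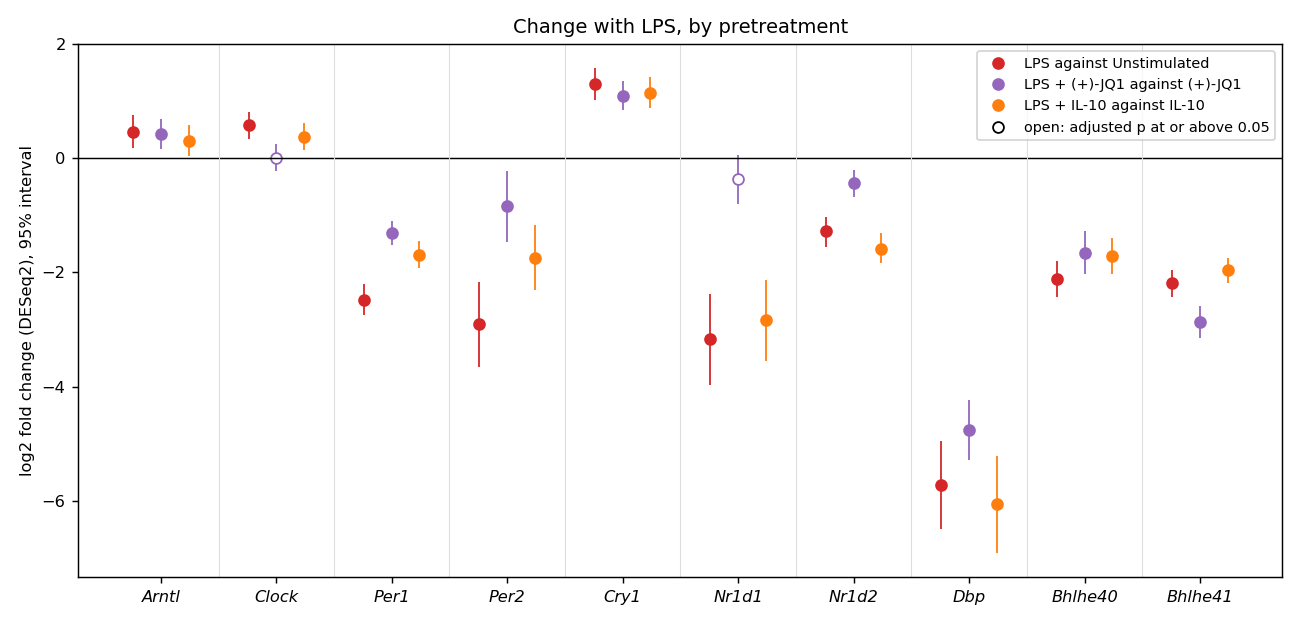
Log2 fold change with LPS (points) and 95% interval (bars) of each clock gene in cells with no pretreatment, with (+)-JQ1 and with IL-10; filled points had an adjusted p under 0.05 in DESeq2. Nr1d1 was at -3.17 without pretreatment, -0.37 after (+)-JQ1 and -2.84 after IL-10, and Dbp was below -4 in all 3 settings.

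The activators were the least variable members. Arntl (mm9, chr7:120350979-120457636), which encodes BMAL1, was at 97.2, 99.8 and 105 normalised counts in Unstimulated cells and at 156, 124 and 142 in LPS. It stood at 147, 133 and 136 in (+)-JQ1 and at 193, 172 and 197 in LPS + (+)-JQ1, the group with the highest level. IL-10 libraries held 103, 107 and 124, and LPS + IL-10 libraries 146, 120 and 142. The 3 libraries with LPS lay above all Unstimulated libraries, and LPS + (+)-JQ1 lay above LPS without overlap. Arntl rose by 0.47 ± 0.147 with LPS (adjusted p = 0.00248) and by 0.46 ± 0.142 with (+)-JQ1 (adjusted p = 0.00335). The rise with (+)-JQ1 was not called with total-count scaling (0.28, adjusted p = 0.0954) or in limma on TPM (0.22, adjusted p = 0.0738). Nor was it called without replicate 1 or 3 (adjusted p = 0.186 and 0.057). During LPS, (+)-JQ1 raised Arntl by 0.42 ± 0.139 (adjusted p = 0.00535), and the call was lost without LPS replicate 2 (0.33, adjusted p = 0.0638). That call was also lost without replicate 1, 2 or 3 in all groups (adjusted p = 0.0708, 0.0845 and 0.109). The difference between (+)-JQ1 with and without LPS was -0.044, with a 95% interval from -0.43 to 0.35. The LPS call was lost without replicate 1 (0.39, adjusted p = 0.136). The direction of the LPS effect on Arntl depended on scaling and was -0.46 (adjusted p = 0.00303) when libraries were scaled to total counts.

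Clock (mm9, chr5:76639992-76733817), the partner of BMAL1, held 527, 485 and 522 normalised counts in Unstimulated cells and 722, 680 and 901 in LPS. In (+)-JQ1 it was at 520, 491 and 440, and in LPS + (+)-JQ1 at 526, 503 and 435. LPS + IL-10 libraries were at 746, 710 and 889, and IL-10 libraries at 660, 591 and 552. All LPS libraries without (+)-JQ1 thus lay above those with (+)-JQ1, while the (+)-JQ1 groups with and without LPS overlapped. Clock rose by 0.58 ± 0.123 with LPS (adjusted p = 5.14e-06) and was lower by 0.65 with (+)-JQ1 during LPS (-0.65 ± 0.124, adjusted p = 4.72e-07). In (+)-JQ1-treated cells the LPS effect was 0.014, with a 95% interval from -0.23 to 0.26. With total-count scaling the LPS effect on Clock was -0.34 (adjusted p = 0.0119) and the effect of (+)-JQ1 during LPS -0.28 (adjusted p = 0.0597).

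A ratio of Arntl to Clock within a library does not depend on how libraries are scaled. The log2 ratio of their TPM was -0.61, -0.46 and -0.50 in Unstimulated cells and -0.38, -0.64 and -0.84 in LPS, and these groups overlapped. It was 0.38, 0.25 and 0.65 in LPS + (+)-JQ1, above every LPS library, with a difference of 1.04 (exact permutation p = 0.1, two-sided, the smallest that 3 against 3 allows). In (+)-JQ1 without LPS it was -0.0043, -0.057 and 0.12, also above every Unstimulated library.

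**Figure D3:**
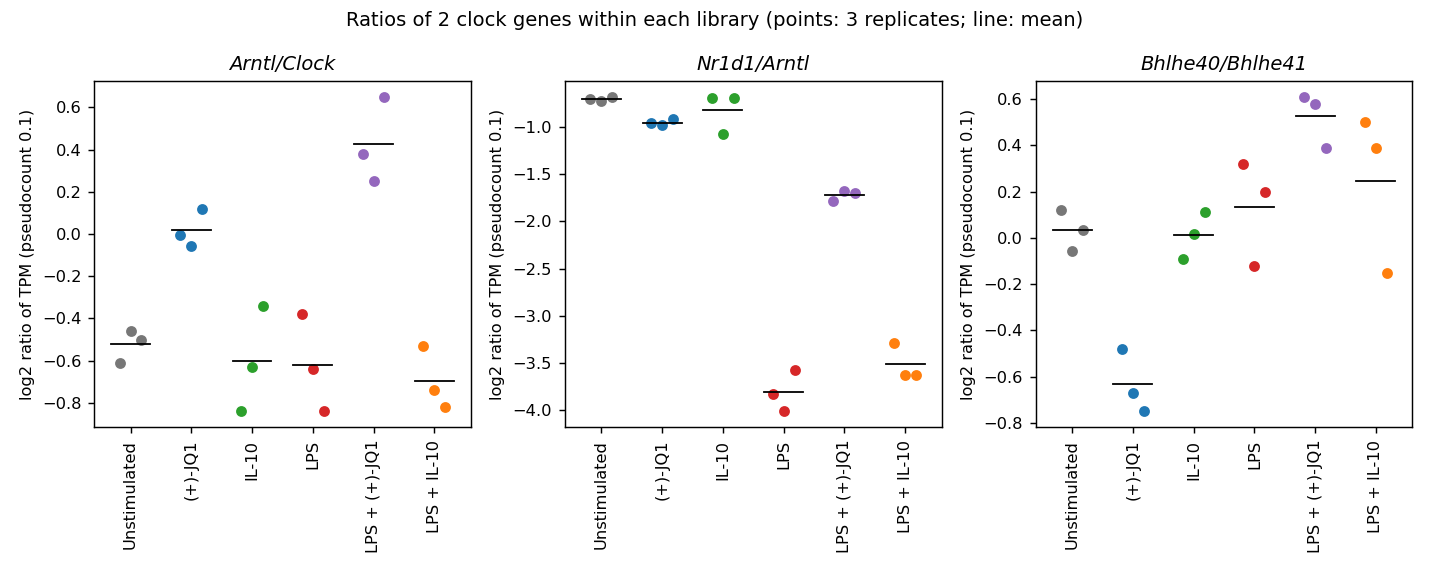
Log2 ratios of TPM of 2 clock genes within each library (pseudocount 0.1; points are libraries, lines are means of 3) for Arntl over Clock, Nr1d1 over Arntl and Bhlhe40 over Bhlhe41. Arntl over Clock lay between 0.25 and 0.65 in LPS + (+)-JQ1 and between -0.84 and -0.38 in LPS, and Nr1d1 over Arntl fell between -4.01 and -3.57 in LPS.

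The period genes fell with LPS. Per1 (mm9, chr11:68908719-68923462), a repressor of the CLOCK and BMAL1 pair whose upstream E-box is printed above, was at 515, 597 and 483 normalised counts in Unstimulated cells and 90.5, 101 and 90.9 in LPS. It was at 650, 688 and 680 in (+)-JQ1 and at 268, 266 and 283 in LPS + (+)-JQ1. IL-10 libraries held 496, 476 and 481, and LPS + IL-10 libraries 157, 184 and 121. The 3 LPS groups did not overlap with one another, in the order LPS, LPS + IL-10 and LPS + (+)-JQ1 from low to high. Per1 fell by 2.48 on the log2 scale with LPS (SE 0.135, adjusted p = 9.36e-74), a 5.57-fold lower level. During LPS, (+)-JQ1 raised it by 1.53 ± 0.141 (adjusted p = 2.85e-26) and IL-10 by 0.67 ± 0.15 (adjusted p = 0.000129). The direct difference between the pretreatments was 0.86 ± 0.129 higher with (+)-JQ1 (adjusted p = 1.59e-10). Its mean in LPS + (+)-JQ1 was 51.3% of that in Unstimulated cells.

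Per2 (mm9, chr1:93312561-93355907), the second period repressor, was a low transcript with 65.6, 66.0 and 59.0 normalised counts in Unstimulated cells and 8.48, 7.24 and 9.82 in LPS, which were 6, 7 and 8 rounded counts. In (+)-JQ1 it was at 25.9, 37.5 and 29.3, below every Unstimulated library, in contrast to Per1. In LPS + (+)-JQ1 it was at 21.0, 21.1 and 8.62, so that 1 library fell within the LPS range. LPS + IL-10 libraries held 17.6, 25.8 and 18.9, and IL-10 libraries 74.2, 56.9 and 73.1. Per2 fell by 2.90 on the log2 scale with LPS (SE 0.381, adjusted p = 9.27e-14) and by 1.04 with (+)-JQ1 alone (SE 0.259, adjusted p = 0.000236). During LPS it was 1.02 ± 0.424 higher with (+)-JQ1 (adjusted p = 0.0298) and 1.28 ± 0.419 higher with IL-10 (adjusted p = 0.0171). The first call was lost without either of the LPS libraries 1 and 2 and without either of the LPS + (+)-JQ1 libraries 1 and 2 (adjusted p = 0.0604, 0.111, 0.119 and 0.126), and the second without LPS replicate 2 (adjusted p = 0.092) or LPS + IL-10 replicate 2 (adjusted p = 0.0947). The interaction of LPS and (+)-JQ1 was 2.06 ± 0.497 (adjusted p = 0.000165), since (+)-JQ1 was associated with a lower level without LPS and a higher level with it. Without replicate 1, neither the interaction (1.73, adjusted p = 0.0627) nor the fall with (+)-JQ1 alone (-0.89, adjusted p = 0.106) was called.

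Cry1 (mm9, chr10:84594447-84647799), a cryptochrome repressor with an E-box in the sequence above, was the repressor that rose with LPS. Unstimulated libraries held 113, 132 and 109 normalised counts and LPS libraries 303, 285 and 273. It stood at 153, 183 and 171 in (+)-JQ1 and at 385, 346 and 356 in LPS + (+)-JQ1. IL-10 libraries were at 103, 112 and 75.6, and LPS + IL-10 libraries at 237, 226 and 195, below every LPS library. Cry1 rose by 1.31 ± 0.14 with LPS (adjusted p = 3.59e-20) and by 0.54 ± 0.142 with (+)-JQ1 (adjusted p = 0.000506). During LPS it was 0.34 ± 0.126 higher with (+)-JQ1 (adjusted p = 0.0141) and fell by 0.40 with IL-10 (SE 0.133, adjusted p = 0.0211). The 2 pretreatments differed by 0.73 ± 0.13 (adjusted p = 6.31e-08). The (+)-JQ1 call during LPS was lost without LPS replicate 3 or LPS + (+)-JQ1 replicate 1 (adjusted p = 0.0659 and 0.0798), and the IL-10 call without LPS replicate 1, LPS replicate 2 or LPS + IL-10 replicate 3 (adjusted p = 0.104, 0.0662 and 0.15). Leaving out replicate 1, 2 or 3 in all groups also removed the (+)-JQ1 call (adjusted p = 0.174, 0.0867 and 0.0999) and the IL-10 call (0.25, 0.234 and 0.272). The IL-10 call was lost too with total-count scaling (-0.30, adjusted p = 0.0896) and in limma on TPM (-0.25, adjusted p = 0.0831). With only the groups compared the IL-10 effect was -0.38 (adjusted p = 0.186).

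The REV-ERB genes differed most between the pretreatments during LPS, with (+)-JQ1 above IL-10 by 2.64 ± 0.373 for Nr1d1 (adjusted p = 8.35e-12) and by 1.63 ± 0.137 for Nr1d2 (adjusted p = 1.19e-31). Nr1d1 (mm9, chr11:98629246-98636647), which encodes REV-ERB alpha, was at 56.3, 55.8 and 61.0 normalised counts in Unstimulated cells and at 7.07, 4.14 and 8.59 in LPS, the latter being 5, 4 and 7 rounded counts. In LPS + (+)-JQ1 it was at 51.9, 49.5 and 55.4, and in LPS + IL-10 at 10.8, 6.08 and 8.11. Without LPS, (+)-JQ1 libraries held 70.9, 63.1 and 67.8 and IL-10 libraries 60.1, 47.6 and 72.3. Only LPS and LPS + IL-10 libraries were low, and LPS + (+)-JQ1 libraries lay just under the Unstimulated range. Nr1d1 fell by 3.17 with LPS (SE 0.407, adjusted p = 2.59e-14), a 9.0-fold lower level. During LPS, (+)-JQ1 raised it by 3.02 ± 0.412 (adjusted p = 1.24e-12), and the LPS effect in (+)-JQ1-treated cells was -0.37 with a 95% interval from -0.80 to 0.066 (adjusted p = 0.146). That LPS effect passed the threshold with total-count scaling (-0.74, adjusted p = 0.00191). The interaction of LPS and (+)-JQ1 was 2.80 ± 0.464 (adjusted p = 1.49e-08), the largest among the members, whereas that of LPS and IL-10 was 0.33 with a 95% interval from -0.74 to 1.40.

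Nr1d1 shares 1075 bases at its 3′ end with Thra, a thyroid hormone receptor gene on the opposite strand, and RSEM under default settings assigns reads without regard to strand. Thra was at 176, 242 and 170 normalised counts in Unstimulated cells, at 49.5, 88.9 and 46.7 in LPS and at 125, 121 and 129 in LPS + (+)-JQ1. Thra fell by 1.63 with LPS (SE 0.244, adjusted p = 6.85e-11) and rose by 1.00 ± 0.249 with (+)-JQ1 during LPS (adjusted p = 0.000159). Reads of the 2 genes in the shared bases cannot be told apart, and the part of Thra in the Nr1d1 values was not tested.

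Nr1d2 (mm9, chr14:19036568-19071641), which encodes REV-ERB beta, was the more abundant of the pair, with a mean of 17.8 TPM in Unstimulated cells against 3.08 TPM for Nr1d1. It was at 583, 558 and 586 normalised counts in Unstimulated cells and 264, 187 and 263 in LPS. It was at 854, 795 and 812 in (+)-JQ1 and at 595, 631 and 587 in LPS + (+)-JQ1, 105% of the Unstimulated mean. IL-10 libraries held 621, 564 and 562, and LPS + IL-10 libraries 157, 175 and 245. LPS + (+)-JQ1 libraries lay above every LPS library, and LPS + IL-10 libraries overlapped with LPS. Nr1d2 fell by 1.28 with LPS (SE 0.133, adjusted p = 2.52e-21) and rose by 0.51 ± 0.122 with (+)-JQ1 alone (adjusted p = 0.000135). During LPS, (+)-JQ1 raised it by 1.35 ± 0.134 (adjusted p = 3.82e-23), and the interaction was 0.84 ± 0.181 (adjusted p = 1.81e-05). Its difference with IL-10 during LPS was -0.28, with a 95% interval from -0.56 to 0.0076 (adjusted p = 0.207), and the call appeared without LPS + IL-10 replicate 3 (-0.51, adjusted p = 0.00421).

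The log2 ratio of Nr1d1 to its target Arntl in TPM was -0.70, -0.73 and -0.68 in Unstimulated cells and -3.83, -4.01 and -3.57 in LPS. It was -1.78, -1.68 and -1.70 in LPS + (+)-JQ1 and -3.29, -3.62 and -3.62 in LPS + IL-10. The ratio was lower by 3.10 with LPS and higher by 2.08 with (+)-JQ1 during LPS, with no overlap in either comparison (exact permutation p = 0.1, two-sided, for each). Nr1d1 was at 0.21, 0.13 and 0.29 TPM in LPS, so the pseudocount of 0.1 makes both differences smaller in size. LPS + IL-10 overlapped with LPS.

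Dbp (mm9, chr7:52960458-52965525), a PAR bZIP activator and a direct output of the loop, had the largest log2 fold change with LPS among the members. Unstimulated libraries held 279, 379 and 314 normalised counts and LPS libraries 8.48, 3.10 and 7.37, which were 6, 3 and 6 rounded counts. In LPS + (+)-JQ1 it was at 15.5, 14.7 and 11.1, and in LPS + IL-10 at 2.71, 6.08 and 5.41. Libraries of (+)-JQ1 held 356, 399 and 374, and IL-10 libraries 323, 330 and 303. All 9 libraries with LPS lay far below all 9 without it. Dbp fell by 5.73 on the log2 scale with LPS (SE 0.392, adjusted p = 1.71e-47), by 4.76 with LPS after (+)-JQ1 (SE 0.266, adjusted p = 2.4e-70) and by 6.06 with LPS after IL-10 (SE 0.434, adjusted p = 1.74e-43). During LPS it was 1.20 ± 0.456 higher with (+)-JQ1 (adjusted p = 0.0165), at 4.25% of the Unstimulated mean, and that call was lost without LPS replicate 2 (0.82, adjusted p = 0.158). The interaction with (+)-JQ1 was 0.96 ± 0.474 (adjusted p = 0.0898), and it was called in edgeR (1.05, adjusted p = 0.0366), with total-count scaling (1.52, adjusted p = 0.00331) and in limma on TPM (0.50, adjusted p = 0.00914). Dbp shares 689 bases with Sphk2, a sphingosine kinase gene on the opposite strand, named after its values were seen. Sphk2 was at 22.4, 25.5 and 21.0 TPM in LPS, where Dbp was at 0.44, 0.17 and 0.43 TPM, and the part of its reads in the Dbp values was not tested.

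The E-box repressors Bhlhe40 and Bhlhe41 were lower with LPS and lower with (+)-JQ1. Bhlhe40 (mm9, chr6:108610623-108616919), known as DEC1, was at 345, 315 and 307 normalised counts in Unstimulated cells and 87.7, 66.2 and 72.4 in LPS. It was at 145, 151 and 125 in (+)-JQ1 and at 49.7, 43.2 and 40.6 in LPS + (+)-JQ1, the lowest group. IL-10 libraries held 288, 286 and 297, and LPS + IL-10 libraries 97.4, 111 and 64.9, which overlapped with LPS. Bhlhe40 fell by 2.11 with LPS (SE 0.165, adjusted p = 9.76e-37), by 1.20 with (+)-JQ1 (SE 0.143, adjusted p = 6.83e-16) and by 0.75 with (+)-JQ1 during LPS (SE 0.206, adjusted p = 0.000725). With total-count scaling the last of these was -0.37 (adjusted p = 0.113). Bhlhe40 shares 306 bases with 0610040F04Rik, which held 0 counts over all libraries.

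Bhlhe41 (mm9, chr6:145806763-145814078), known as DEC2 and carrying an E-box in the sequence above, was at 632, 651 and 597 normalised counts in Unstimulated cells and 140, 144 and 125 in LPS. It was at 405, 482 and 419 in (+)-JQ1 and at 62.9, 55.8 and 60.3 in LPS + (+)-JQ1. IL-10 libraries held 613, 563 and 546, and LPS + IL-10 libraries 135, 166 and 144. The LPS + (+)-JQ1 libraries were the lowest of all and did not overlap with LPS. Bhlhe41 fell by 2.19 with LPS (SE 0.118, adjusted p = 7.35e-76), by 0.52 with (+)-JQ1 (SE 0.0963, adjusted p = 3.68e-07) and by 1.19 with (+)-JQ1 during LPS (SE 0.161, adjusted p = 6.53e-13). The interaction of LPS and (+)-JQ1 was -0.67 ± 0.188 (adjusted p = 0.00133), and with total-count scaling it was -0.12 (adjusted p = 0.623). That call was also lost without replicate 2 (-0.52, adjusted p = 0.103). For Bhlhe40 the interaction was 0.46, with a 95% interval from -0.035 to 0.95 (adjusted p = 0.135), and it was called with TMM scaling (0.59, adjusted p = 0.0462), with total-count scaling (1.01, adjusted p = 0.000158) and in limma on TPM (0.98, adjusted p = 6.99e-05). The log2 ratio of Bhlhe40 to Bhlhe41 in TPM was 0.61, 0.58 and 0.39 in LPS + (+)-JQ1 and 0.32, -0.12 and 0.20 in LPS, a difference of 0.40 without overlap (exact permutation p = 0.1, two-sided). Without LPS it lay the other way, at -0.48, -0.67 and -0.75 in (+)-JQ1 and 0.12, -0.055 and 0.036 in Unstimulated cells.

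**Figure D4:**
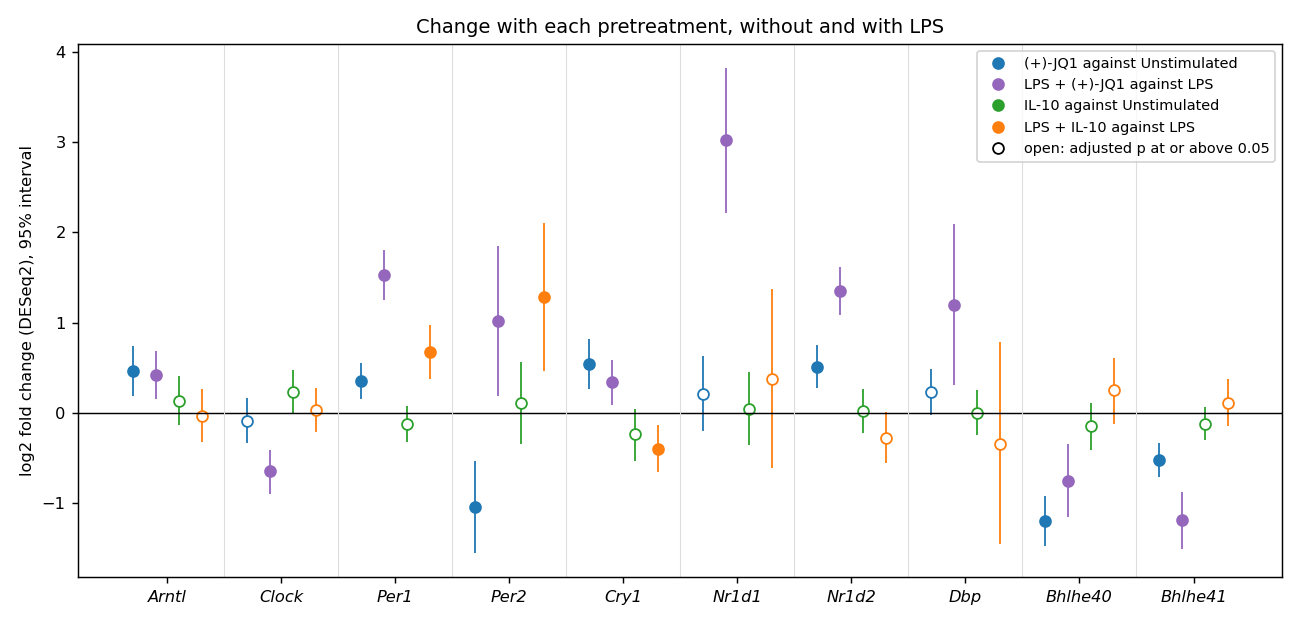
Log2 fold change (points) and 95% interval (bars) of each clock gene with (+)-JQ1 and with IL-10, in cells without and with LPS; open points had an adjusted p at or above 0.05 in DESeq2. Nr1d1 stood at 3.02 with (+)-JQ1 during LPS and 0.21 without LPS, and no IL-10 point without LPS was filled.

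Per length, Dbp had the highest mean level among the members in Unstimulated cells, at 29.8 TPM, followed by Nr1d2 (17.8), Per1 (16.3), Bhlhe40 (15.1) and Bhlhe41 (14.7). Clock (7.35), Cry1 (5.71), Arntl (5.07), Nr1d1 (3.08) and Per2 (1.54) were lower. In LPS the order was headed by Cry1 at 8.11 TPM and Clock at 6.48 TPM, and Dbp stood at 0.347 TPM. Over the 6 groups, the range of log2 group means of normalised counts was 6.09 for Dbp, 3.37 for Bhlhe41 and 3.21 for Nr1d1, and 0.89 for Arntl and 0.69 for Clock.

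How the libraries were scaled set the zero of these fold changes. The median log2 fold change over 11390 genes with LPS was -0.031 with median-of-ratios scaling, -0.11 with TMM scaling and -0.96 with total-count scaling. Among called genes, 49.0% were higher with LPS under median-of-ratios scaling and 20.1% under total-count scaling, and for (+)-JQ1 during LPS 42.5% and 64.9%. The 7 genes that fell with LPS did so under each of the 3 scalings, with Dbp at -6.65, Nr1d1 at -4.10 and Per1 at -3.40 for total counts. Cry1 was higher under each scaling, at 0.38 for total counts. Arntl and Clock changed sign, at -0.46 and -0.34, both above the median of all genes with that scaling.

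**Figure D5:**
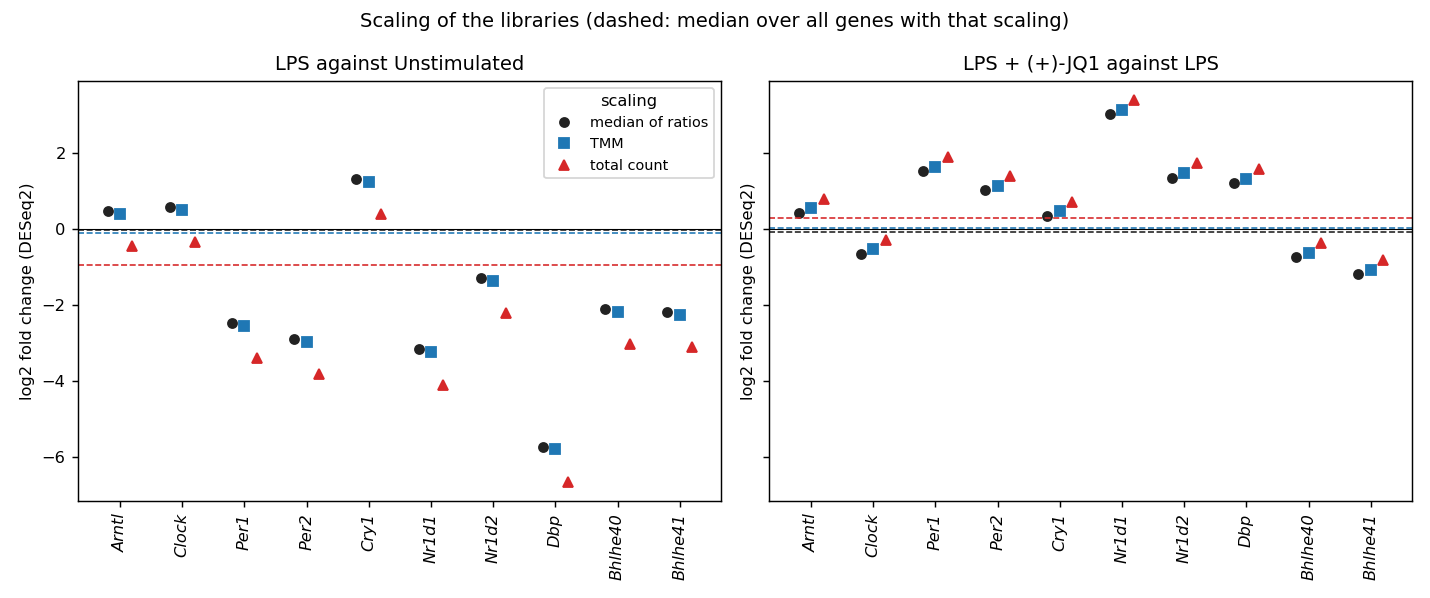
Log2 fold changes of the clock genes with LPS (left) and with (+)-JQ1 during LPS (right) when libraries were scaled by median of ratios, TMM or total count; dashed lines mark the median of all genes for each scaling. For LPS the total-count values lie lower, around a median of -0.96, and Arntl and Clock lie below 0 only there.

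Other genes of the clock pathway were examined as a list of 30, of which 28 had an adjusted p for LPS. With LPS 9 rose and 13 fell, where 31.6% and 32.9% of all genes did, with a median absolute log2 fold change of 1.25 against 0.99 over all genes tested. Among those that fell were Per3, the third period gene (-3.11 ± 0.214), Tef, a PAR bZIP relative of Dbp (-3.71 ± 0.135), Rora, the ROR activator that opposes REV-ERB (-2.99 ± 0.167), Cipc, a CLOCK-interacting repressor (-3.07 ± 0.153), Usp2, a deubiquitinase (-3.74 ± 0.405), and Npas2, a CLOCK paralogue (-4.00 ± 0.62). In LPS, Npas2 was at 2, 2 and 3 rounded counts, at or under the floor of 3 counts, and Usp2 at 6, 8 and 7. Among those that rose were Nfil3, the D-box repressor that opposes DBP (1.14 ± 0.153), Fbxw11, a ligase subunit for PER (2.33 ± 0.0795), and Timeless (2.56 ± 0.156). Nampt, of NAD synthesis, rose by 3.09 ± 0.136, the RNA-binding protein gene Nono by 1.80 ± 0.0582, and the NAD-dependent deacetylase gene Sirt1 by 1.07 ± 0.168. All of these had an adjusted p under 0.05 in DESeq2.

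During LPS, (+)-JQ1 raised 11 of the 28 list genes with an adjusted p and lowered 9, against 24.4% and 32.9% of all genes. Tef was at 66.5, 54.8 and 65.1 normalised counts in LPS and at 272, 279 and 289 in LPS + (+)-JQ1, and it rose by 2.18 ± 0.142 (adjusted p = 7.46e-52). Cry2, the second cryptochrome, was at 80.6, 64.1 and 58.9 in LPS, 216, 202 and 192 in LPS + (+)-JQ1 and 179, 269 and 177 in LPS + IL-10. It rose by 1.60 ± 0.185 with (+)-JQ1 (adjusted p = 3.72e-17) and by 1.61 ± 0.185 with IL-10 (adjusted p = 3.36e-16) during LPS, whereas Cry1 moved in opposite directions with the 2 pretreatments. Both Cry1 calls were lost without any 1 replicate number, as given above. Per3 rose by 1.00 ± 0.241 and Usp2 by 1.13 ± 0.448 with (+)-JQ1 during LPS, and Timeless, which was at 390, 432 and 355 in LPS and 126, 125 and 167 in LPS + (+)-JQ1, fell by 1.50 (SE 0.142). IL-10 during LPS raised 2 list genes and lowered 2, of 25 with an adjusted p, against 8.38% and 8.81% of all genes.

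Without LPS, (+)-JQ1 raised 12 and lowered 4 of 28 list genes, against 21.9% and 23.7% of all genes, and IL-10 raised 1 of 26, Nfil3, against 1.8%. Nfil3 was at 209, 169 and 123 normalised counts in Unstimulated cells, 353, 383 and 327 in IL-10 and 490, 462 and 419 in (+)-JQ1, so both pretreated groups lay above it. Nfil3 rose by 1.09 ± 0.15 with IL-10 (adjusted p = 1.9e-10) and by 1.46 ± 0.15 with (+)-JQ1 (adjusted p = 7.27e-21). Cry2 rose by 1.08 ± 0.162 and Npas2 fell by 3.88 (SE 0.544) with (+)-JQ1, where Npas2 was at 4, 3 and 3 rounded counts. LPS after (+)-JQ1 raised 7 and lowered 9 of 28 list genes, against 27.6% and 31.0% of all genes. LPS after IL-10 raised 11 and lowered 11 of 28, against 33.2% and 33.8%. The direct comparison of the pretreatments during LPS gave 8 higher and 7 lower of 28 with (+)-JQ1, against 23.8% and 31.6%. The (+)-JQ1 interaction was positive for 7 and negative for 11 of 26, against 17.7% and 23.8%, and the IL-10 interaction had 1 of each sign among 23, against 4.0% and 3.44%. The log2 ratio of Dbp to Nfil3 in TPM was lower by 6.51 in LPS than in Unstimulated cells, without overlap (exact permutation p = 0.1, two-sided).

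The genes whose log2 normalised counts were most alike to the 2 most variable members were given as a description over 8377 genes and the 18 libraries, which share the LPS contrast. For Dbp these were Nipal3 (Pearson r 0.994), Zfp36l2 (0.992) and Cerk (0.992), and for Bhlhe41 they were C2cd3 (0.993), P2rx7 (0.992) and Stat6 (0.99).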

How the data were processed

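The study's authors extracted reads of stranded, ribosomal RNA-depleted paired-end libraries, used STAR for alignment to mm9 and RSEM 1.2.31 for quantification, per the submitters' processing notes. The deposited expected counts (RSEM estimates, unnormalised) were rounded. The deposited TPM values, relative abundances per length computed by the authors, were used for ratios, markers and levels between genes. FPKM was not used. The DESeq2 1.42.0 Wald test (R 4.3.3) was fitted to all genes of the 18 libraries with group as the term, and adjusted p-values cover all genes tested. Alternatives were a replicate block, TMM and total-count scaling, edgeR 4.0.16 quasi-likelihood tests, limma 3.58.1 on log2(TPM + 1), a filter of 10 counts in 3 libraries, only the groups compared, lane, and leaving out each replicate number. Leaving out single libraries was added after seeing the data. Ratios used a pseudocount of 0.1 and exact permutation tests from scipy 1.17.1. Scripts were tested on simulated data.

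Groups and replicate numbers came from the titles. The labels describe matched samples from 3 mice. Same-numbered libraries were taken to come from the same mouse, which the titles alone do not state. Correlations between same-numbered libraries of their deviations from group means were 0.0766 to 0.202 for LPS and -0.293 to 0.238 for (+)-JQ1 during LPS. Replicate 1 was on lane 7, replicate 3 on lane 8, and replicate 2 on lane 7 without LPS and lane 8 with it. Positions came from GENCODE vM1. The members, gene lists and tests were chosen with earlier results of these data known. All members were named. List genes were named where the mean over libraries reached 10 normalised counts and a called log2 fold change reached 1 in size, and likeness was limited to genes whose mean reached 100. A further list gene that met this rule is not reported here.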

Additional observations from a re-analysis of the deposited data

Results flagged for a closer look

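Effects that differed with and without LPS by the interaction term of the DESeq2 fit were singled out. For (+)-JQ1 the difference in log2 effect was 2.80 for Nr1d1, 2.06 for Per2, 1.17 for Per1 (adjusted p = 1.92e-10), 0.84 for Nr1d2, -0.67 for Bhlhe41 and -0.57 for Clock (adjusted p = 0.00408). For IL-10 it was 0.79 for Per1 (adjusted p = 0.000477). The values of Clock and Bhlhe41 were -0.015 and -0.12 with total-count scaling, neither past the threshold. The (+)-JQ1 call was lost without replicate 1 for Per2 (1.73, adjusted p = 0.0627) and without replicate 2 for Bhlhe41 (-0.52, adjusted p = 0.103). The IL-10 call for Per1 was lost without replicate 1 or replicate 2.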

How the results depend on the processing

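Of 100 values (10 genes in 10 comparisons), 100 kept their direction and side of the threshold with the replicate block, with lane and with the count filter, 99 with edgeR, 97 with TMM scaling, 93 with only the groups compared, 82 when limma was run on TPM and 83 when libraries were scaled to total counts. With the replicate block 10 clock genes were called for LPS, as without it, and the block changed no other call. Sign changes between 2 values that both missed the threshold were not counted.

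With total-count scaling the sign was reversed for Arntl with LPS (-0.46), with LPS after IL-10 (-0.52) and in the interaction with (+)-JQ1 (0.51), and for Clock with LPS (-0.34), LPS after (+)-JQ1 (-0.36) and LPS after IL-10 (-0.45). With limma on TPM it was reversed for Arntl in the same 3 comparisons (-0.24, -0.36 and 0.38), for Clock with LPS (-0.17) and LPS after IL-10 (-0.30), and for Bhlhe41 in the interaction with (+)-JQ1 (0.16). Both scalings place the median of all genes lower with LPS. Among log2 ratios, Per1 to Per2 with LPS was -0.29 in TPM and became 0.40 on normalised counts. Per2 was at 0.11, 0.10 and 0.15 TPM in LPS, near the pseudocount of 0.1. That pseudocount lowers the TPM ratio more in LPS than in Unstimulated cells. With a pseudocount of 1, which exceeds the TPM of several of these genes in LPS, Per1 to Per2 with IL-10 during LPS went from -0.16 to 0.32, Nr1d1 to Nr1d2 from -1.35 to 0.085 with LPS and from 1.15 to -0.15 with (+)-JQ1 during LPS, and Dbp to Nfil3 with (+)-JQ1 during LPS from 0.36 to -0.34.

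The number called for (+)-JQ1 was 4 with limma and 4 to 8 when a replicate or library was left out, and for (+)-JQ1 during LPS 6 to 10. For IL-10 during LPS it was 1 with limma, 1 with only the groups compared and 1 to 3 when a replicate or library was left out. For the interaction with IL-10 it was 0 to 3, with 3 without LPS + IL-10 replicate 3. These changes rest on fewer samples or on another scale. Depth limits Dbp, Nr1d1 and Per2 in LPS, and the list genes Npas2 and Usp2 there, each at 8 counts or fewer per library.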
